A study of Mus musculus with 8 samples.

Results

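The Hox genes of the 4 mouse clusters were examined for DNA methylation in resting B cells and naive T cells. Members were the protein-coding genes of GENCODE M21 whose symbol is Hoxa, Hoxb, Hoxc or Hoxd followed by a number. A total of 38 of 21755 protein-coding genes on the autosomes and X were taken, 10 in HoxA, 10 in HoxB, 9 in HoxC and 9 in HoxD. The rule uses the symbol alone and no methylation value. The HoxA span, taken from Hoxa2 to Hoxa13, lies at chr6:52162417-52260880, the HoxB genes at chr11:96194316-96368256, the HoxC genes at chr15:102921103-103036852 and the HoxD genes at chr2:74668310-74765142 (GRCm38).

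Hox genes code for homeodomain transcription factors that give cells of the embryo their position along the head-to-tail axis. Genes stand in each cluster in the order of their domains of expression, with low numbers at the anterior end and high numbers at the posterior end. Polycomb complexes keep silent Hox genes packed under H3K27me3, a mark found mostly on CpG-rich DNA free of methylation, while Trithorax proteins such as the MLL methyltransferases keep active ones open. In blood, HoxA genes with middle and high numbers, Hoxa9 foremost, are active in stem and progenitor cells and are shut down as lymphocytes mature.

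All mice were of the inbred strain C57BL/6J, aged 6 to 8 weeks, and the labels name no engineered allele and no treatment. Splenic CD43- B cells (resting) and CD4+CD62L+ T cells (naive, sorted by flow cytometry) were taken from females and from males, with cells pooled over animals. This gave 4 groups of 2 samples, 1 group for each sex of each cell type. Where 4 levels stand in a row they run female B, male B, female T, male T, and where 2 levels of a cell type stand together the female file comes first. Each group has 1 deposited file, named by both of its samples, and whether that file merges them is not stated. There are therefore no replicates within a group, a B and T difference was seen once in each sex, and a sex difference once in each cell type. The p-values rest on counting error and on the disagreement between these 4 files, not on the spread between animals. For 1 kb windows that disagreement was pooled over all windows, so a window's own disagreement does not enter its p-value. Bisulfite turns unmethylated cytosine into a base read as thymine, and the percentage of reads left as cytosine gives the methylation level of a CpG. In this assay 5-methylcytosine and 5-hydroxymethylcytosine are read alike.

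CpGs with 5 or more reads in all 4 files were used, 18216084 of them on the autosomes. The mean depth over the autosomal CpGs that each file lists was 14.6 to 17.7 reads. The autosomal level was 79.4% to 80.5% in the 4 files. The promoters of 8 B cell genes had medians of 11.6%, 16.2%, 72.5% and 71.9%, and those of 9 T cell genes 83.4%, 82.3%, 8.33% and 5.87%. All of these but Cr2 and Cd28 were called different between the cell types as defined below. The promoters of 5 myeloid genes had medians of 66.7% to 76.3%, and none was called.

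Before the values, 4 stretches of HoxA are shown because the results turn on them. They were read from the RefSeq genome of GRCm38.p6 on the minus strand, the strand of the HoxA genes, and none overlaps an annotated exon. Capitals mark CpGs. The first 3 are the 200 bases before the annotated starts of Hoxa5 (chr6:52204588-52204787), Hoxa6 (chr6:52208723-52208922) and Hoxa7 (chr6:52221855-52222054). The last is the 300 bases with the most measured CpGs in the 1 kb window with the greatest B and T difference, inside Hoxa7 (chr6:52219095-52219394).
Hoxa5 upstream: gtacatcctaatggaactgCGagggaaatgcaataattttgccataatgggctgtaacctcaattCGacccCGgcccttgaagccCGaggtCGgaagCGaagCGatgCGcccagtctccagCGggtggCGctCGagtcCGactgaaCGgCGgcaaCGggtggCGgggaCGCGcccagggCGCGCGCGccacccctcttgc
Hoxa6 upstream: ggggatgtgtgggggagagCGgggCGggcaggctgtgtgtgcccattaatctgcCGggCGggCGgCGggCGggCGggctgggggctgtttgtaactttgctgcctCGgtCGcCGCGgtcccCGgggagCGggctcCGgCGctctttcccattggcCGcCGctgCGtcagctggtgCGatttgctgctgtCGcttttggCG
Hoxa7 upstream: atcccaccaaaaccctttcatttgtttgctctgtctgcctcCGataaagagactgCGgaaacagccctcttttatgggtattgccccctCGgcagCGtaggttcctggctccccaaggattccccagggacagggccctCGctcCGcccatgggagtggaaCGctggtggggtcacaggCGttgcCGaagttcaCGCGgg
Hoxa7 intron: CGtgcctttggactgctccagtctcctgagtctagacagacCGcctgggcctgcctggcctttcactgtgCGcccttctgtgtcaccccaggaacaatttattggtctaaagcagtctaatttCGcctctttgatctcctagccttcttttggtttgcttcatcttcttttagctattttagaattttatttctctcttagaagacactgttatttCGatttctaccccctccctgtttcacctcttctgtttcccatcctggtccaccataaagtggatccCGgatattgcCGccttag

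The Hoxa5 and Hoxa6 stretches hold 22 CpGs each and their starts are only 4135 bases apart, yet they lay at opposite ends of the scale. Before Hoxa5 the level was 79.4%, 75.1%, 77.3% and 96.0%. Before Hoxa6 it was 1.33%, 0.707%, 1.97% and 6.71%. Before Hoxa7, with 11 CpGs, it was 2.07%, 0%, 0.310% and 0.355%. In the Hoxa7 intron, which holds 7 CpGs, B cells had 61.3% and 63.3% while T cells had 83.4% and 93.3%, and 6 of the 7 CpGs were higher in T cells in both sexes. The intron stretch was taken from the window with the greatest difference, so this direction follows from the choice. CpGs covered by the same reads are also not independent. CpG-rich sequence was thus mostly methylated before Hoxa5 and almost free of methylation before Hoxa6.

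Levels along whole clusters set HoxA and HoxB apart from HoxC and HoxD. The HoxA span had 33.1%, 33.2%, 36.4% and 36.3%. The HoxB span had 38.3%, 36.8%, 38.2% and 38.4%. Its level includes a long stretch with no member gene, from the end of Hoxb13 (chr11:96197447) to the start of Hoxb9 (chr11:96271457). The HoxC span had 11.9%, 11.1%, 12.2% and 12.6%, and the HoxD span 15.9%, 15.5%, 15.7% and 15.8%. All 4 spans lay far below the autosomal level in every file, and their own flanks of 100 kb lay between, at a mean over files of 54.4% for HoxA, 65.3% for HoxB, 57.9% for HoxC and 52.3% for HoxD. A span was also richer in CpGs than its flanks, with 2.99, 2.09, 2.15 and 2.80 CpGs per 100 bases in HoxA, HoxB, HoxC and HoxD against 0.851 over the autosomes.

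The make-up of these averages differed between clusters. In HoxA, 54.5% of CpGs were below 20% over the 4 files and 30.6% above 80%, so most CpGs were at either end. In HoxB the shares were 49.1% and 26.4%. In HoxC, 82.3% of CpGs were below 20% and only 1.37% above 80%, and in HoxD the shares were 76.9% and 5.11%. Over the autosomes they were 9.60% and 76.0%. Of 1 kb windows with 3 or more CpGs, 37 of 94 in HoxA and 51 of 171 in HoxB were above 80% in all 4 files, against 0 of 110 in HoxC and 6 of 95 in HoxD. Many of these HoxB windows lie between Hoxb13 and Hoxb9, outside any member, as in the 8 kb run at chr11:96224001-96232000. Others lie at members, as in the 10 kb run at chr11:96321001-96331000, which overlaps Hoxb4 and Hoxb3. Over all windows the share was 72.6%.

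**Figure D1:**
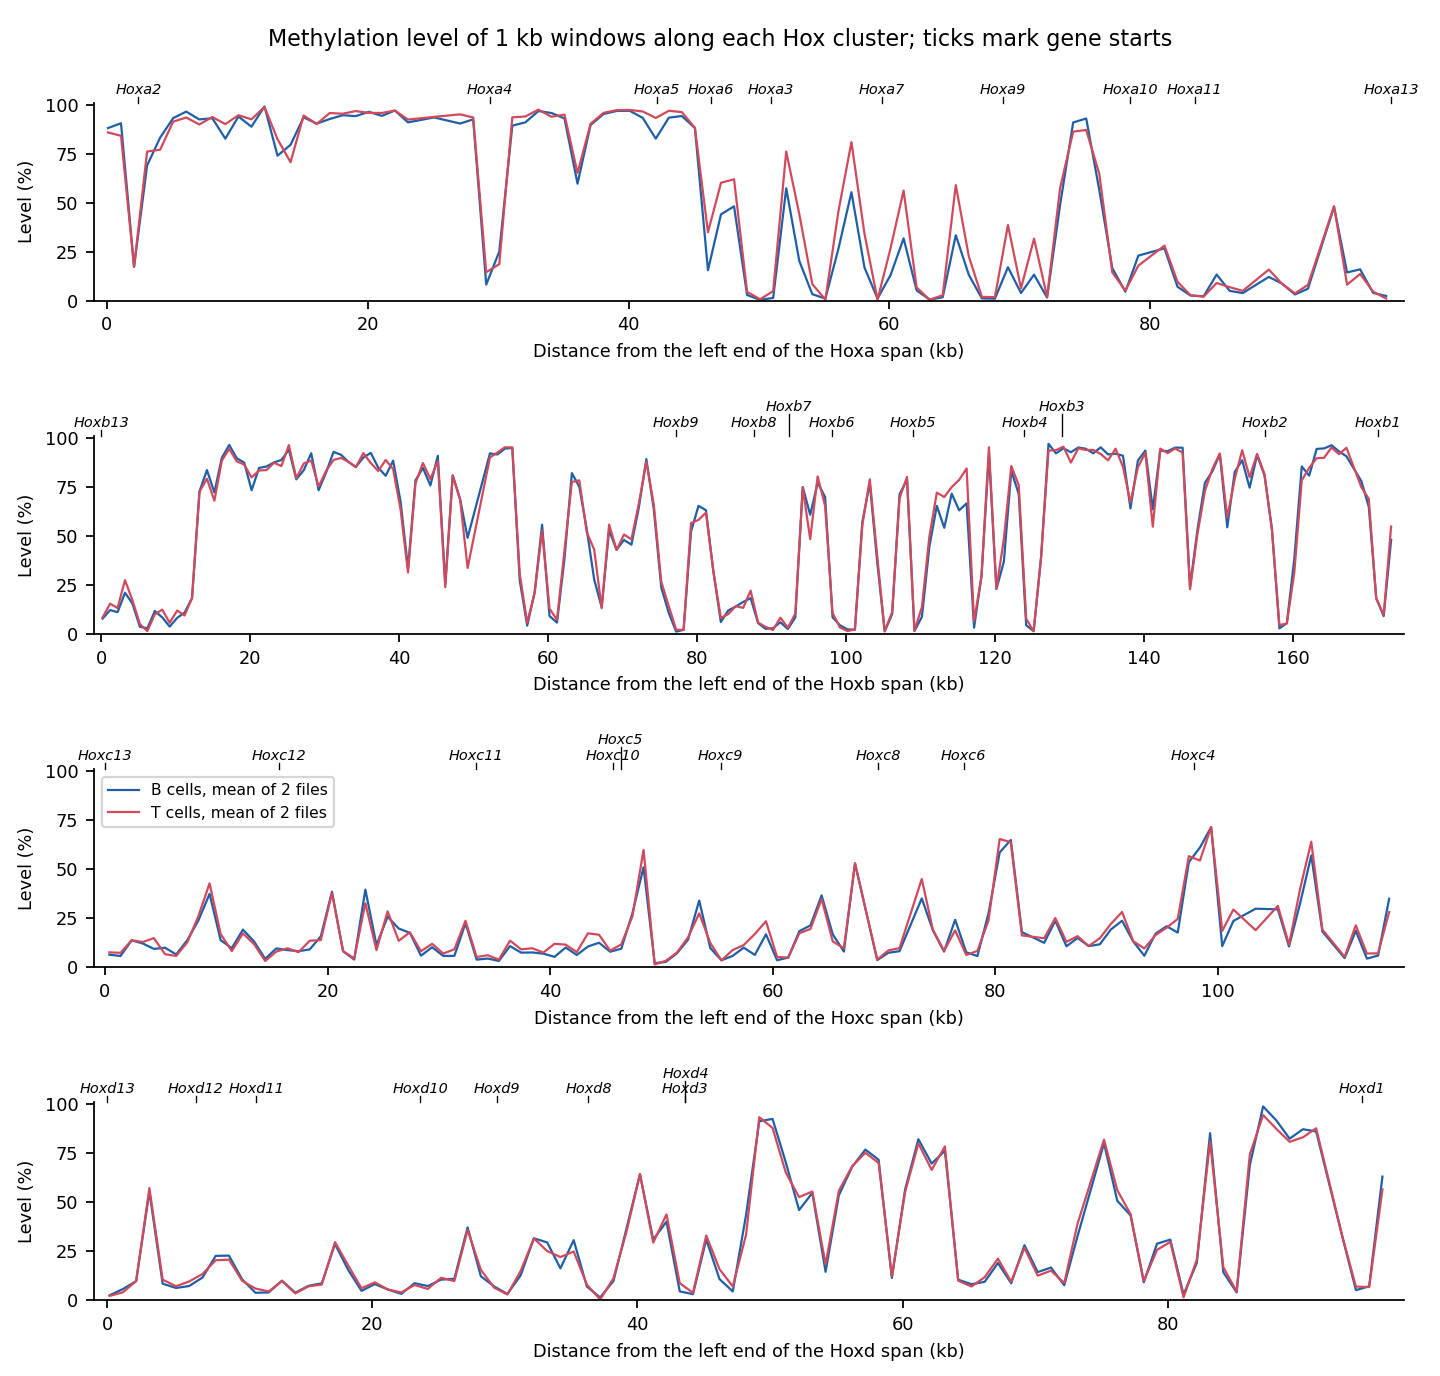
Methylation level in percent (vertical axes) of 1 kb windows against distance in kb from the left end of each Hox span, with B cells in blue and T cells in red, each the mean of 2 files, and ticks at annotated gene starts. HoxA was mostly high up to Hoxa5 and mostly low beyond Hoxa6, HoxC had 0 windows above 80% in all files, and the lines of the cell types part between Hoxa6 and Hoxa10.

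Inside the spans, sequence under a cutoff of 10% in all 4 files came in short pieces. Their length depends on that cutoff, which lies close to the HoxC level of 11.1% to 12.6%. Runs of 1 kb windows under 10% in all 4 files that reached 3 kb numbered 8, together 27 kb, out of 1160 such runs on the autosomes. The longest was the 5 kb at chr11:96282001-96287000, over Hoxb8 and the start of Hoxb7, and 127 autosomal runs were as long or longer, up to 9 kb. In HoxD the longest was 4 kb, at chr2:74689001-74693000, with the start of Hoxd10. Windows with a mean of 20% to 80% made up 22 of 94 in HoxA (23.4%), 65 of 171 in HoxB (38%), 32 of 110 in HoxC (29.1%) and 34 of 95 in HoxD (35.8%), against 15.2% of all windows.

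Promoters, the annotated start with 1 kb to either side, were mostly unmethylated. Of 38 promoters, 21 were below 10% in all 4 files, compared with 37.7% of all promoters, and 4 were above 50% in all files, compared with 32.9%. The Hox promoters held a median of 85.5 CpGs against 61 over all promoters, and among promoters with 50 or more CpGs 20 of 32 Hox promoters were below 10%, near the 64.0% of all such promoters. Levels rest on 199 to 2973 reads per promoter and file, with a read counted at each CpG it covers. The widest 95% Wilson interval of counting error spans 6.36 points to either side. It takes these counts as independent and is therefore likely too narrow.

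In HoxA, the highest promoters were those of Hoxa5 and Hoxa2 and the lowest those of Hoxa11 and Hoxa13. Hoxa5, which patterns the neck, lung and shoulder, was the only promoter of 50 or more CpGs among the members above 50% in all files. It had 86.3%, 87.9%, 94.0% and 94.8% over 135 CpGs. Of all promoters with 50 or more CpGs, 1.08% were above 80% in all files as Hoxa5 was. Hoxa2, the determinant of the second pharyngeal arch, had 33.8%, 27.9%, 36.3% and 34.5%. Hoxa11 and Hoxa13, which pattern limb and urogenital tract, had 1.90%, 3.22%, 3.27% and 1.87%, and 4.77%, 1.82%, 3.17% and 2.76%.

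In HoxB, Hoxb3 and Hoxb2 stood highest and Hoxb9 and Hoxb7 lowest. Hoxb3, a gene of hindbrain and pharyngeal patterning, had 92.0%, 93.4%, 95.6% and 93.7%. Hoxb2 had 80.5%, 83.9%, 80.5% and 83.6%. Both annotated starts are poor in CpGs, with 21 and 20 measured. The start of the principal Hoxb2 transcript lies 1106 bases away and had 27.7% to 32.0%. Hoxb9 had 2.82%, 2.79%, 3.69% and 4.02%, and Hoxb7 3.21%, 4.02%, 4.77% and 4.33%.

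In HoxC, Hoxc4 stood apart with 57.2%, 58.8%, 53.0% and 57.7% over 19 CpGs. Its principal transcript starts 15461 bases away and had 4.37% to 7.96%, so the intermediate level belongs to the outermost annotated start. The next promoter was that of Hoxc10 with 8.35%, 9.86%, 10.6% and 11%. The lowest were those of Hoxc9 with 5.40%, 4.11%, 5.23% and 4.95% and Hoxc8 with 5.22%, 4.77%, 5.23% and 5.69%. In HoxD no promoter at an outermost annotated start reached 13%, but the principal start of Hoxd4, 10049 bases away, had 35.4%, 37.0%, 31.3% and 45.3%. Hoxd12 was highest with 10.0%, 10.4%, 12.5% and 11.8%, and Hoxd10 followed with 7.91%, 8.79%, 6.04% and 7.83%. Hoxd13, a gene of digit and genital development, was lowest with 3.52%, 4.75%, 4.14% and 4.24%, followed by Hoxd3 and Hoxd4 with 3.32%, 3.95%, 4.42% and 5.67%. The starts of these last 2 lie 2 bases apart, so they share their promoter CpGs and are 1 measurement that enters the counts of members under both names. Those of Hoxc5 and Hoxc10 lie 647 bases apart and share part of theirs.

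Some paralogue groups spanned nearly the whole scale and others a few points. Group 5 ran from 9.66% at Hoxc5 to 90.7% at Hoxa5, and group 3 from 4.04% at Hoxa3 to 93.7% at Hoxb3 (means over the 4 files). Group 7 ran only from 3.65% to 4.08%, group 10 from 7.44% to 9.95% and group 11 from 2.56% to 6.38%. At outermost annotated starts the groups with numbers 7 to 13 held no promoter with a mean above 13.0%. The principal start of Hoxa9, 3719 bases inside the gene, was higher, with a mean of 25.9%. Across the 38 members, promoter level and promoter CpG number gave a Spearman correlation of -0.387 and a Pearson correlation of -0.356, as a description over genes that share libraries and, in 2 pairs, promoter CpGs.

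**Figure D2:**
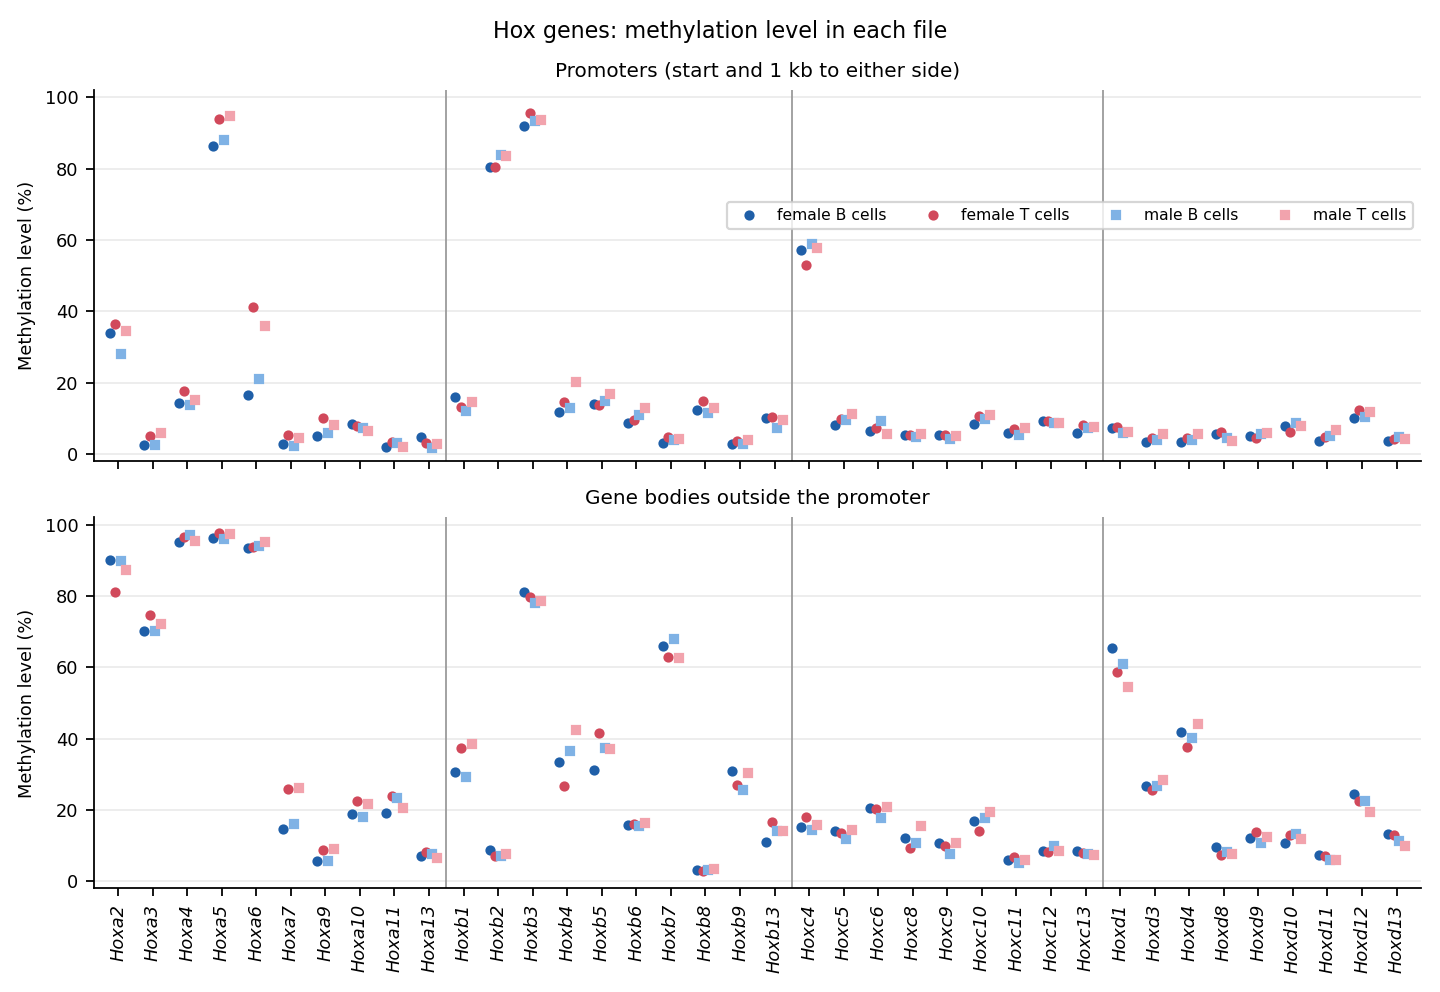
Methylation level in percent of each member's promoter (upper) and gene body (lower) in each of the 4 files, circles for females and squares for males, blue for B and red for T cells, with lines between clusters. Most promoters lay below 20%, Hoxa5, Hoxb2, Hoxb3 and Hoxc4 lay above 50% in all files, and the bodies of Hoxa2 to Hoxa6 lay above 70%.

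Gene bodies of the Hox genes were mostly low, unlike those of other genes. Outside the promoter, 9 of 38 bodies were below 10% in all 4 files, compared with 0.961% of all gene bodies, and 8 were above 50%, compared with 93.2%. The median level was 18.5% against 87.3% over all bodies. These comparisons were not matched on CpG density or length. Hox bodies held a median of 67.5 CpGs against 185 over all bodies. The Hox spans held 2.09 to 2.99 CpGs per 100 bases against 0.851 over the autosomes. The 9 unmethylated bodies were those of Hoxa9, Hoxa13, Hoxb2, Hoxb8, Hoxc11, Hoxc12, Hoxc13, Hoxd8 and Hoxd11. The 8 methylated ones were Hoxa2, Hoxa3, Hoxa4, Hoxa5, Hoxa6, Hoxb3, Hoxb7 and Hoxd1. A body leaves out only the 1 kb to either side of the outermost annotated start. The bodies of Hoxa9, Hoxb2 and Hoxd11 therefore hold their principal starts, as do those of Hoxa7 and Hoxa10. Some bodies overlap: the annotated Hoxa3 span holds the starts of Hoxa4, Hoxa5 and Hoxa6, that of Hoxc5 holds Hoxc6, Hoxc8 and Hoxc9, and that of Hoxd3 holds Hoxd4.

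Body levels differed widely along HoxA. Hoxa4 had 95.2%, 97%, 96.4% and 95.5% although its promoter had 13.8% to 17.7%. Hoxa5 had 95.9% to 97.6% and Hoxa6 93.5% to 95.1%. Hoxa9, the member best known from leukaemia, had 5.56%, 5.62%, 8.75% and 9.18%, and Hoxa13 6.48% to 8.11%. Between them Hoxa10 and Hoxa11 had means of 20.3% and 21.7%. In HoxB the lowest body was that of Hoxb8 with 2.94% to 3.55%, and Hoxb7 next to it had 62.7% to 67.8%. In HoxC the bodies ran from a mean of 5.96% at Hoxc11 to 19.8% at Hoxc6. Bodies exceeded their promoters in mean level in 31 of 38 members, the exceptions being Hoxa9, Hoxb2, Hoxb3, Hoxb8, Hoxc4, Hoxc11 and Hoxc12.

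CpG islands, stretches of at least 500 bases with 55% or more GC and an observed to expected CpG ratio of 0.65 or more, repeated this split by cluster. The spans hold 49 of 11673 autosomal islands with 5 or more measured CpGs. Of these, 34 (69.4%) were below 10% in all files against 80.2% of all islands, and 7 (14.3%) were above 50% against 12.1%. All 7 lay in HoxA (4) and HoxB (3), while HoxC and HoxD had 0 of 10 and 0 of 13.

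The highest island of HoxA, in the Hoxa6 gene at chr6:52206008-52206796, had 93.6%, 95.6%, 96.4% and 97.1%. The lowest, at chr6:52225095-52226512 in Hoxa9, had 0.865%, 0.569%, 0.942% and 0.494%. In HoxB the highest overlaps Hoxb3 (chr11:96343868-96344406) with 83.5% to 87.1% and the lowest lies at Hoxb4 (chr11:96318436-96319576) with 0.117% to 0.513%. The HoxC islands ran from 1.77% to 3% at Hoxc9 (chr15:102976754-102977253) to 12.2% to 17.5% at Hoxc6 (chr15:103011747-103012280). The HoxD islands ran from 1.08% to 2.81% at Hoxd8 (chr2:74704351-74706287) to 9.49% to 12.7% at Hoxd3 (chr2:74746177-74747586).

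**Figure D3:**
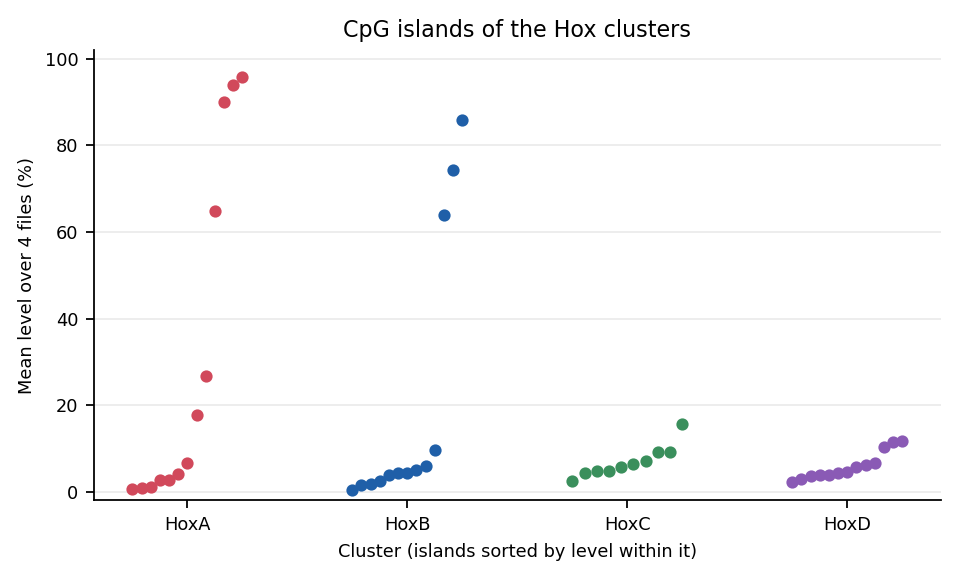
Mean methylation level over the 4 files in percent (vertical axis) of the 49 CpG islands in the Hox spans, by cluster and sorted within it. The 7 islands above 50% in all files lay in HoxA and HoxB, and all HoxC and HoxD islands lay below 20%.

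B cells and T cells were compared next. A region was called at an adjusted p under 0.05 in a quasi-binomial model (terms for sex and for cell type) and a mean difference of 20 points or more. Of the 38 promoters 0 were called, where 0.896% of all promoters were, and of the 38 bodies 0 were called, where 0.59% of all bodies were. At an unadjusted p under 0.05 there were 7 promoters (18.4%, against 14.2% of all promoters) and 7 bodies (18.4%, against 30.5% of all bodies), and limma and Fisher's exact test in both sexes called 0 of either. B cells lay below T cells in both sexes at 24 of 38 promoters, against 25.9% of all promoters, with a median B minus T of -1.22 points against 0.147. The 24 fell as 7 of 10 in HoxA, 7 of 10 in HoxB, 5 of 9 in HoxC and 5 of 9 in HoxD. At bodies the count was 12 of 38, near the 31.2% of all bodies.

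By adjusted p alone, whatever the size, 2 promoters passed, beside 2.89% of all promoters, and both were in HoxA. At Hoxa6, a gene of thoracic patterning, B cells had 16.7% (95% Wilson interval 14.6% to 19%) and 21.0% (18.7% to 23.5%), and T cells had 41.1% (38.1% to 44.1%) and 35.8% (33.3% to 38.4%). Both T cell files lay above both B cell files, and the counting intervals of the cell types did not overlap. Those intervals take a read counted at several CpGs as independent reads, so they are likely too narrow. The difference B minus T, -24.4 points for females and -14.8 for males, had a mean of -19.6, just short of the 20 points of a call (adjusted p = 0.00277 in the quasi-binomial model). The promoter was called with CpGs of 10 or more reads (-23.7 points), and with 500 bases to either side (-18.2 points) it no longer passed. Hoxa5 had a mean B minus T of -7.28 (adjusted p = 0.00269 in the same model), but with CpGs of 10 or more reads it was -4.07 and with 500 bases to either side -10.8, and under both it no longer passed. With principal starts, where 3.16% of all promoters passed, Hoxa9 passed as well, with 17.2%, 20.4%, 34.4% and 31.5% and a mean difference of -14.1 points (adjusted p = 0.0101 in the quasi-binomial model). The principal starts of Hoxa3, Hoxa7 and Hoxa10 did not pass, with mean differences of -2.52, -0.306 and -0.392 points.

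Among bodies, 4 passed by adjusted p alone, all in HoxA and all higher in T cells, beside 18.8% of all bodies, which is a larger share. Hoxa7, which patterns the trunk vertebrae, had 14.6%, 16.2%, 26% and 26.3%, a mean difference of -10.8 points (adjusted p = 0.000274 in the quasi-binomial model). Its T cell files lay above both B cell files by about the same amount in each sex. The mean differences at Hoxa3, Hoxa9 and Hoxa10 were -3.23, -3.37 and -3.64 points, and with the whole gene span, where they were -3.41, -3.26 and -3.15 points, none of these 3 passed. The Hoxa3 body holds the promoters of Hoxa5 and Hoxa6 described above, so it reuses their CpGs and is not a separate measurement.

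Windows of 1 kb placed the difference. Of 470 windows in the 4 spans 5 were called, where 2.08% of all windows were. The share over all clusters was below that background here but not in every setting, since without the male B cell file 10 of 470 were called against 39971 of 2018320, and at 10 points the shares were 4.26% and 4.19%. All 5 were higher in T cells and all lay in HoxA, 5 of its 94 windows where 0.913% of all windows were called in that direction. By adjusted p alone, 35 of 470 passed (background 5.34%), of which 23 were in HoxA, 9 in HoxB, 1 in HoxC and 2 in HoxD. In HoxA, 20 of 94 windows were higher in T cells, where 2.54% of all windows were, and 3 were higher in B cells. These shares were not matched on CpG number. The HoxA span held 2.99 CpGs per 100 bases against 0.851 over the autosomes, and more reads in a window let smaller differences pass. Of the T-higher count, Fisher's exact test in both sexes gave 12 and limma 0. The share of all windows passing these other tests without the size threshold was not counted, so the 2.54% is no background for them.

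The 5 called windows covered the genes Hoxa7, Hoxa9 and the edge of Hoxa10. At chr6:52215001-52216000, which overlaps exons of Hoxa7 with part of its UTR and of the antisense RNA Hoxaas3, the levels were 20.7%, 20.04%, 36.6% and 52.0%. At chr6:52219001-52220000, the Hoxa7 intron whose sequence is shown above, they were 53.7%, 57%, 77.2% and 84.6%. At chr6:52223001-52224000, over an exon and UTR of Hoxa9, they were 29.1%, 34.5%, 56.2% and 56.1%. In each of them both T cell files lay above both B cell files. The Hoxa7 intron lies inside the outermost transcript but before the principal Hoxa7 start at chr6:52217505.

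The principal start of Hoxa9 (chr6:52227370) lies in chr6:52227001-52228000, again over an exon and UTR of that gene. There the levels were 33.3%, 33.6%, 58.6% and 59.3%, a mean difference of -25.5 points. At chr6:52231001-52232000, which touches exons of Hoxa9 and Hoxa10, they were 14%, 20.3%, 42.1% and 35.1% over 6 CpGs and 59 to 86 reads per file. This last window lost its call under Fisher's exact test in both sexes, with CpGs of 10 or more reads and with the spread taken from windows of 300 or more reads. The other 4 remained called under each of these 3 settings, but limma called 0 of the 5.

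**Figure D4:**
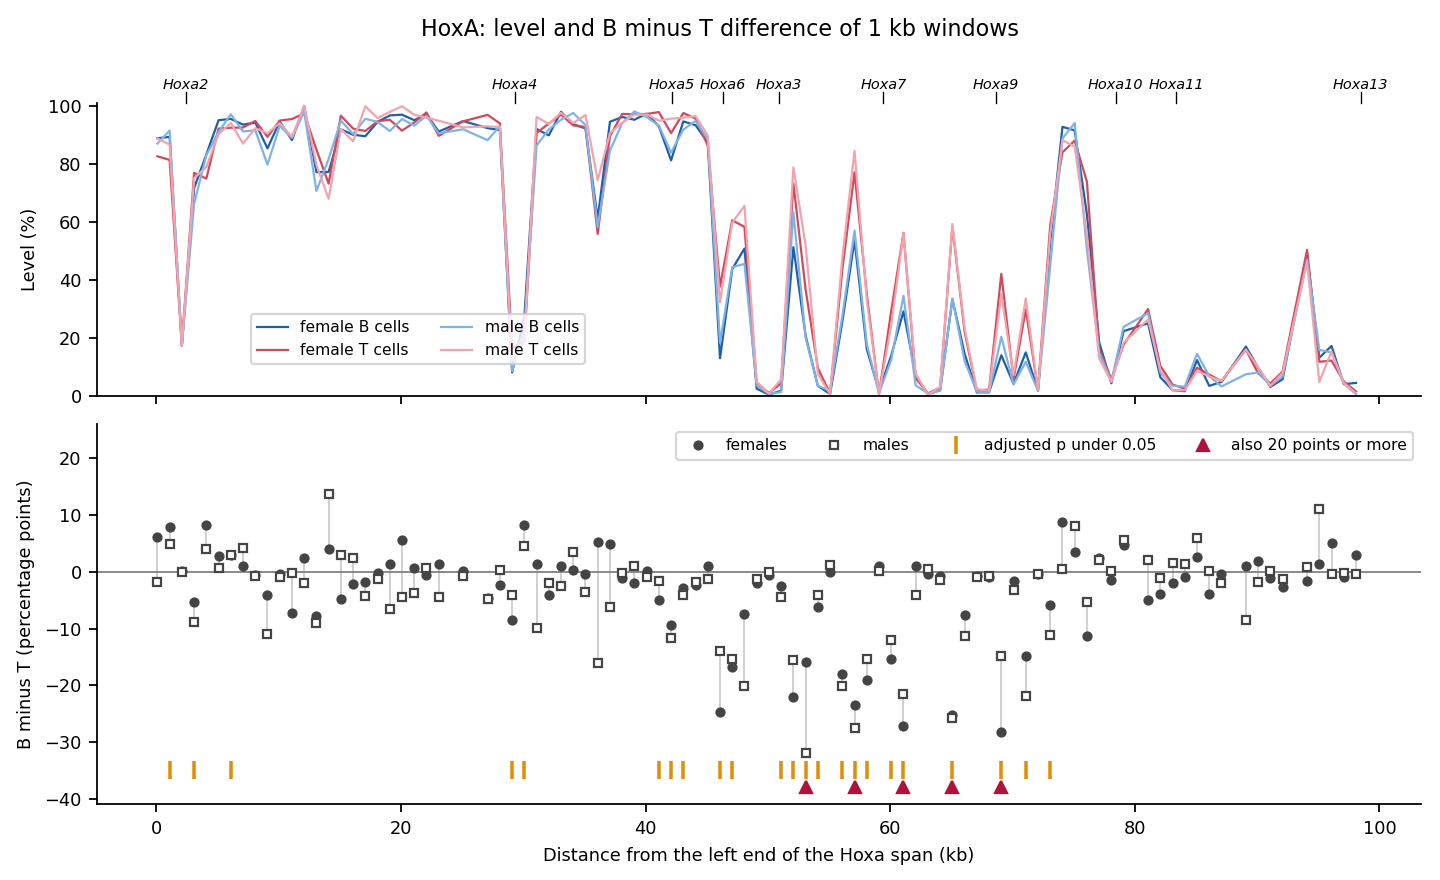
Upper: methylation level in percent of 1 kb windows along HoxA in each of the 4 files against distance in kb from the left end of the span. Lower: B minus T in percentage points in females (filled circles) and males (open squares), with orange ticks for windows past the adjusted p and red triangles for the 5 called ones, all of them between Hoxa3's and Hoxa10's annotated starts.

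The called windows belong to a longer stretch whose ends were chosen after the values had been seen, so it is described with no test. Between chr6:52162001 and chr6:52208000, which holds Hoxa2, Hoxa4, Hoxa5 and most of Hoxa6, 35 of 44 windows were above 80% in all files and 0 below 10%, and the levels were 79.6%, 78.7%, 79.7% and 78.7%. Here 8 windows passed the adjusted p, 5 higher in T cells and 3 higher in B cells, among them chr6:52204001-52205000 at Hoxa5 with a mean difference of -10.6 points. Between chr6:52208001 and chr6:52236000, from the start of Hoxa6 into Hoxa10, 0 of 28 windows were above 80% and 13 below 10%. The levels there were 9.68%, 10.2%, 16.1% and 16.2%. From there to the end of the span at Hoxa13 they were 9.84%, 9.63%, 10.7% and 9.63% over 22 windows. That boundary was set at the last window past the adjusted p, so by construction 0 of these 22 passed.

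Within the middle stretch the differences in points were greater at the partly methylated windows, though a low mean itself limits a difference in points. All 15 windows with a mean of 10% or more were higher in T cells in both sexes. Their mean differences ran from -8.56 to -25.5 points, with a median of -18.7. Of these windows 13 passed the adjusted p of the quasi-binomial model, though none did by limma, and 2.54% of all windows passed as higher in T cells. The end of the stretch was set by this same adjusted p, which raises the count by construction. The 13 windows with a mean under 10% differed by at most 5.14 points, and 2 passed. These were chr6:52213001-52214000 with 1.73%, 1.25%, 4.27% and 5.64%, and chr6:52216001-52217000 with 3.37%, 3.40%, 9.53% and 7.51%, both again higher in T cells. Some islands stayed low in every file: that in Hoxa7 at chr6:52216577-52218170 had 0.817% to 1.32%, and that at the Hoxa7 start (chr6:52221059-52222103) 0.307% to 1.42%. The sequence before Hoxa6 shown above, at most 6.71% in any file, lies within the Hoxa6 promoter, which as a whole had 16.7% to 41.1%.

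Outside HoxA, no window was called. In HoxB 9 of 171 windows passed the adjusted p, a share near the 5.34% of all windows, 7 of them higher in T cells and 2 higher in B cells. The window at chr11:96310001-96311000, between Hoxb5 and Hoxb4, had 64.0%, 69.2%, 84.2% and 84.6%, a mean of -17.8 points. Those at chr11:96307001-96308000 and chr11:96309001-96310000 were also higher in T cells, by means of -15.7 and -15.5 points as B minus T. One at chr11:96289001-96290000 in Hoxb7 was higher in B cells, with 59.8%, 61.7%, 44.4% and 52.3%. In HoxD the 2 windows that passed were higher in B cells, at chr2:74705001-74706000 (1.09%, 1.87%, 0.328% and 0.560%) and chr2:74716001-74717000 (45.3%, 41.5%, 34.0% and 32.7%).

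Females and males were compared within cell types in the same model. Of 38 promoters 0 were called (0% of all autosomal promoters were), of 38 bodies 0 (0% of all autosomal bodies) and of 470 windows 0 (0.00103% of all autosomal windows). At an unadjusted p under 0.05 there were 3 promoters (7.89%, against 4.61% of all), 3 bodies (7.89% against 5.55%) and 54 windows (11.5% against 4.74%), and limma and Fisher's exact test called 0. The 54 windows became 33 with the spread taken from windows of 300 or more reads and 4 by limma. The window shares here were not matched on CpG number either. By adjusted p alone 3 windows passed, where 0.0226% of all windows did. That at chr11:96320001-96321000 in Hoxb4 had 37.2%, 40.7%, 28.4% and 50.3%, a mean female minus male difference of -12.7 points. That at chr11:96263001-96264000 had 35.4%, 50.4%, 38.1% and 47.6% (-12.3 points). That at chr6:52260001-52261000 in Hoxa13 had 4.40%, 0.498%, 1.48% and 0.845% (2.27 points). The greatest body difference with a low unadjusted p was at Hoxb4, with 33.5%, 36.6%, 26.6% and 42.4% (adjusted p = 0.822 in the quasi-binomial model).

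The genes that act with or upon Hox genes were measured in the same way, and their counts stand against 37.7% of all promoters below 10% in all files (64.0% of those with 50 or more CpGs) and 0.896% called. Of the 9 TALE cofactors (Meis, Pbx and Pknox genes, whose proteins bind DNA beside Hox proteins), 8 promoters were below 10% in all files and 0 were called. The exception was Pbx2 with 20.1%, 20.6%, 1.51% and 1.87%, a mean difference of 18.7 points (adjusted p = 0.000148 in the quasi-binomial model, under the size threshold). Of 8 neighbours and ParaHox genes, 6 were below 10% and 0 called, the exceptions being Cdx1 and Cdx4. Evx1 and Evx2, at the posterior ends of HoxA and HoxD, had means of 7.57% and 7.47%, and Cdx1, an activator of Hox genes in the embryo, had 43.3%, 39.9%, 53.5% and 45.6%, a mean difference of -7.93 points (adjusted p = 0.0488 in the quasi-binomial model). Cdx4, on the X chromosome, had 47.6%, 19.4%, 49.4% and 23.8%.

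Of 6 Trithorax genes, 6 promoters were below 10% in all files, with Kmt2a at 0.113% to 0.769%, and 0 were called. Of 14 Polycomb genes, 9 were below 10%, with Ezh2 at 0.227% to 0.913%, and 0 were called. Cbx7, a chromodomain subunit of Polycomb complex 1, was the only one above 50% in all files, at 95.8% to 97%. For the genes of these lists only the outermost annotated start is given, and a principal start elsewhere may differ.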

How the data were processed

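The assay was whole-genome bisulfite sequencing, and 4 deposited files, 1 a group, were used for the 8 samples. Each file gives, per CpG, a methylation fraction (methylated over all reads, 3 decimals) and a coverage count of reads, both made by the authors. Per the labels' processing notes, Trim Galore, FastQC and Bismark 0.13.1 were run and the build was mm10, with no role given. Per the deposited values, strands were merged and CpGs under 5 reads left out. Filters, duplicate removal and conversion rates are not given in the sources used here. Reads copied by PCR and not removed would widen the true error, and intervals and p-values cover counting error and the disagreement of the 4 files only. A read over several CpGs is counted at each of them. The counts of a region are thus not independent, and the intervals are likely too narrow. Part of each sample was oxidized per the labels, and the files used are named as plain bisulfite libraries.

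Methylated reads were fraction times coverage, rounded. Levels are methylated over all reads of a region with 3 or more CpGs of 5 or more reads in all files. A quasi-binomial logistic model (terms: cell, sex) was fitted to these reads, with 1 residual degree of freedom, and a dispersion from the deviance, squeezed with squeezeVar of limma 3.58.1 (R 4.3.3). Each term got an F test, and p-values were adjusted by Benjamini and Hochberg's method over all regions (sex: autosomes). The prior came from regions with at least 5 expected reads of each kind in every file. For windows its degrees of freedom were infinite, so every window shared 1 dispersion of 1.31, while the Hox windows' own mean was 1.89, and small p-values overstate certainty for a single window. The fit was tested on simulated data whose spread was set below that fitted for promoters (2.08), bodies (1.86) and windows (1.31). The simulation therefore does not show how the fit behaves at the spread of these data. An earlier run whose dispersion was inflated where the fit had not converged was replaced after its counts were seen. Alternatives were coverage, CpG and size minimums, other promoter, body and window limits, other priors, limma on log2 ratios with a pseudocount of 1, Fisher's exact test, no second term, and each file left out.

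Values were given per file for members called, for the 2 highest and 2 lowest promoters of each cluster and for promoters with a mean of 20% to 80%. Up to 5 called windows per direction were named, and the highest and lowest island of each cluster. Other named genes, and the HoxB and HoxD windows, were chosen after their values were seen. Members and lists were chosen with earlier results of these data known. One further gene matched by the symbol rule is not reported here. Other tools were Python 3.11.15, NumPy 2.4.6, SciPy 1.17.1 and matplotlib 3.10.9.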

Additional observations from a re-analysis of the deposited data

Results flagged for a closer look

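One window was marked because its B and T difference went in opposite directions in the sexes and the difference between them was past an adjusted threshold, which held for 1 of 470 Hox windows and 263 of 2018320 windows in all. At chr11:96342001-96343000, in the Hoxb3 gene span, the females differed by 14.9 points (B minus T) and the males by -6.69, from 86.4% (B) and 71.5% (T) in females and 67.7% (B) and 74.4% (T) in males. The test compared the residual of the additive quasi-binomial model with the spread shared by all windows (adjusted p = 0.00376), and with the spread of windows of 300 or more reads the adjusted p was 1. The female B cell file alone lay apart from the other 3 at this window, and what sets it apart was not tested. Outliers within a group could not be looked for, since each group has 1 file.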

How the results depend on the processing

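No paired analysis was possible because the groups share no replicate numbers. With a difference of 10 points in place of 20, 1 promoter (2.63% against 1.90% of all), 1 body (2.63% against 2.29%) and 20 windows (4.26% against 4.19%) were called for B against T, and 2 windows (0.426% against 0.0113%) for females against males. With 10 reads per CpG 1 of 38 promoters was called, where 179 of 19776 promoters in all were. With windows of 500 bases 14 of 786 Hox windows were called for B against T, a smaller share than over all such windows (71583 of 2665470). By limma 0 of 470 Hox windows were called, where 20613 of 2018320 windows in all were. Of the 5 windows called for B against T, the count was 14 with windows of 500 bases, 0 by limma on log2 ratios, and 0 with the prior from all windows, a setting that called 0 of 2018320 windows, and from 4 to 10 when each file was left out (10 without the male B cell file). The 20 HoxA windows higher in T cells by adjusted p became 12 by Fisher's exact test in both sexes, 0 by limma and 14 to 17 when each file was left out, alternatives chosen after seeing the data. With principal starts 2 promoters were above 50% in all files. The HoxA, HoxB, HoxC and HoxD levels were 37.6%, 39.2%, 12.4% and 16.1% as a mean over CpGs, and 33.1%, 37.7%, 12.5% and 16.4% with 5 kb added. With 10 reads per CpG HoxA, HoxB and HoxC were 32.1%, 36.3% and 11.7%. Leaving out each file gave 34.2% to 35.3%, 37.8% to 38.3%, 11.7% to 12.3% and 15.7% to 15.8%. The cause of these shifts was not tested. The 98 other values for counts and levels stayed within 1.5 times the count or within the counting interval. Many of them are counts of 0 that stayed 0 and say little. For females against males, 0 promoters and 0 bodies of the autosomes were called in any setting, and the X chromosome was left out of this comparison.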
